A study of Homo sapiens with 6 samples.

Results

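The values here describe parental H358, a widely used human cell line derived from a bronchioloalveolar type of non-small cell lung cancer. Of the 6 libraries in the series, 2 were read from parental H358 with wild-type BRMS1, and these 2 were used. They were chosen by their sample titles, and every value was computed over the 57445 gene rows of the count table. The cells grew in RPMI with 10% fetal bovine serum, total RNA was isolated on columns, and libraries were sequenced as read pairs of 50 bases. The labels name no treatment, time point or allele other than BRMS1 WT, and they call the cells epithelial. They do not say whether the 2 replicates came from separate cultures, so the spread between them may be technical. The other 4 libraries, from 2 clones of the same line, were not analysed here.

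Lung adenocarcinomas with bronchioloalveolar features grow from the distal airway, where alveolar type II cells secrete surfactant, alveolar type I cells form the gas-exchange surface and club cells line the small bronchioles. NKX2-1 and the FOXA factors specify this epithelium and drive the surfactant genes. RAS proteins relay growth-factor signals through RAF, MEK and ERK kinases, which switch on feedback genes such as the DUSP phosphatases and the Sprouty inhibitors.

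Gene rows held 30735129 counts in replicate 1 and 27527867 in replicate 2, which was 78.26% and 78.25% of the reads listed. Levels are given as CPM, which scales each count to the sum of gene counts in its library, for a gene across libraries. Where genes are set against each other, they are given as TPM, which also divides by the gene's exon length. A gene is called expressed where it had at least 1 CPM in both libraries. At these depths 3 counts, the limit that a count of 0 allows, equal 0.0976 CPM in replicate 1 and 0.109 CPM in replicate 2. Intervals and limits cover counting error only.

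The parental line expressed 13933 genes, 24.3% of the gene rows. Among protein-coding genes 12227 of 19228 were expressed, which is 63.6%, and 3130, or 16.3%, had no count in either library. Every count of expressed members in a gene list stands against this background of 63.6%. Protein-coding genes took 97.36% and 96.89% of gene counts. By their level in the lower library, 2817 protein-coding genes lay between 1 and 10 CPM, 7400 between 10 and 100, 1960 between 100 and 1000, and 50 above 1000. Of 12627 long non-coding genes 941 were expressed, and of 13947 pseudogenes 485 were.

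Mitochondrially encoded genes were the most abundant transcripts. Their 37 genes held 7.378% of gene counts in replicate 1 and 5.011% in replicate 2, a mean of 6.19% ± 1.67 (SD, n = 2). MT-CO1, a subunit of cytochrome c oxidase, had 13229 and 9791 CPM. MT-ND4, a subunit of respiratory complex I, had 10880 and 5593 CPM. Of the 2 mitochondrial ribosomal RNAs, MT-RNR2 had 4251 and 6004 CPM, so it was higher in replicate 2 while the coding genes named above were higher in replicate 1. The 10 genes with the most counts held 6.72% and 4.866% of gene counts, and the 100 with the most held 19.08% and 16.04%.

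Of the nuclear genes, S100A6 and TMSB10 had the highest length-corrected levels. S100A6, a small calcium-binding protein of epithelial and tumour cells, was at 6683 and 9497 TPM. TMSB10, a thymosin that binds actin monomers, was at 8344 and 5700 TPM. The order of these genes differed between the libraries, so they cannot be ranked against each other. ACTG1, cytoplasmic gamma actin, followed at 5402 and 3979 TPM, below both of them in each library. Next by mean TPM came RPL8, a ribosomal protein, at 3007 and 3300 TPM. The 85 cytosolic ribosomal protein genes together held 4.742% and 4.794% of gene counts, a spread far smaller than that of the mitochondrial genes.

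Glycolytic and lipid-synthesis enzymes were among the 20 genes with the most counts. ENO1, the glycolytic enolase, had 3409 and 3494 CPM. PKM, pyruvate kinase, had 3329 and 3292 CPM. FASN, the fatty acid synthase, had 2366 and 1577 CPM. The first pair differed little between libraries, whereas FASN was lower in replicate 2. The chaperones of the HSP90 family were also in this group, with HSP90AB1 at 2773 and 1719 CPM and HSP90AA1 at 2645 and 1226 CPM. HSP90AA1 was more than 2-fold lower in replicate 2. Ranks by count are not corrected for length. By mean TPM, ENO1 and HSP90AB1 were among the 20 highest nuclear coding genes, whereas PKM, FASN and HSP90AA1 were not.

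Some genes outside the rule for named genes were picked after their values were seen, because they stood among the 20 highest nuclear coding genes by TPM. HMGA1, an architectural chromatin protein, was at 2577 and 2673 TPM. CRABP2, which carries retinoic acid to its receptor, was at 2075 and 2997 TPM. FTL, the light chain of the iron store ferritin, was at 1991 and 2442 TPM. CRABP2 and FTL overlapped ENO1, at 2181 and 2478 TPM, and HMGA1 lay above it in both libraries. This order depended on the gene length used. With the longest transcript as length, ENO1 was at 3450 and 3832 TPM and lay above all of them in both libraries. HMGA1 was then at 2122 and 2151 TPM, CRABP2 at 1688 and 2384 TPM and FTL at 1521 and 1824 TPM.

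By mean TPM, hosts of small nucleolar RNAs came at the head of the 10 highest long non-coding genes, whereas LINC00657 was highest in replicate 1. GAS5 was at 287.2 and 571.4 TPM, ZFAS1 at 189 and 592.2 TPM, and SNHG8 at 218 and 516.2 TPM. All 3 were higher in replicate 2. LINC00657, also called NORAD, differed less between libraries, at 294.9 and 377.2 TPM. Its lead in replicate 1 depended on the gene length used. With the longest transcript as length, LINC00657 was at 225.3 TPM there, below GAS5 at 469.1 TPM. MALAT1, a nuclear-retained transcript, was at 241.4 and 409.2 TPM.

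The sequences before the start sites of genes at both ends of the scale are shown here, picked after their levels were known. They are the 100 bases before the start, 5′ to 3′ on the gene's strand, from RefSeq on GRCh38.p14, with every TATAA (or TTATA) and every GGGCGG (or CCGCCC) in capitals.
S100A6 (chr1:153535992-153536091, minus strand): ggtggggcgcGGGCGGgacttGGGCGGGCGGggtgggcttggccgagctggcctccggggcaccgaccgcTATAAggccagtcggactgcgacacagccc
TMSB10 (chr2:84905556-84905655, plus strand): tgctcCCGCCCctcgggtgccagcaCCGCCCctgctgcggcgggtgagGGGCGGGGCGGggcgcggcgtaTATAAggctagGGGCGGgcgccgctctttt
ACTG1 (chr17:81512800-81512899, minus strand): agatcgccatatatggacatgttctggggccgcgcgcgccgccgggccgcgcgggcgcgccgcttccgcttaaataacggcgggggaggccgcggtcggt
SFTPA1 (chr10:79610839-79610938, plus strand): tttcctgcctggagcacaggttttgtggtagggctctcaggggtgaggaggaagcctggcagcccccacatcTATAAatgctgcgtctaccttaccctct
SFTPA2 (chr10:79560408-79560507, minus strand): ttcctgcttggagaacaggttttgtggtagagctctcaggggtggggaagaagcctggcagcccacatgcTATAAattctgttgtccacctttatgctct
SCGB3A2 (chr5:147878611-147878710, plus strand): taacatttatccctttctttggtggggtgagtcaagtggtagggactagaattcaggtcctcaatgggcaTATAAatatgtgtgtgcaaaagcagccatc
KRT5 (chr12:52520395-52520494, minus strand): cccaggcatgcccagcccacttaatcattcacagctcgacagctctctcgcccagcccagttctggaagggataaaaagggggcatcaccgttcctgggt

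Both S100A6 and TMSB10, the highest nuclear genes, had the TATAA letters with their first base 30 bases before the start. S100A6 held 3 matches to GGGCGG on either strand and TMSB10 held 5. ACTG1, the next nuclear gene by mean TPM, held neither set of letters. SFTPA1 and SFTPA2, which code for surfactant protein A and were near 0 here, also had TATAA, at 28 and 30 bases, and no GGGCGG. SCGB3A2, a club cell secretoglobin also near 0, had TATAA at 30 bases and no GGGCGG. KRT5, a basal-cell keratin with no count, held neither. TATAA was thus present and missing at both ends of the scale, whereas GGGCGG was found only in S100A6 and TMSB10 among the genes shown. GC content was 76% in S100A6 and in TMSB10, 72% in ACTG1, 56% in SFTPA1, 50% in SFTPA2, 43% in SCGB3A2 and 58% in KRT5, against a median of 60% over all 35116 starts in the RefSeq table. Of those starts 9.002% held TATAA and 31.31% held GGGCGG on either strand in these 100 bases. Only exact matches were marked, so variants of these letters may be present in the genes described as without them. The letters are a description and were not tied to the levels by any test.

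The markers of epithelium were expressed throughout, 16 of 16 against 63.6% of protein-coding genes, with a median of 285 TPM. KRT19, a simple-epithelial keratin, was at 1396 and 1274 TPM, and KRT18, another keratin of simple epithelium, at 1077 and 1065 TPM. EPCAM, an epithelial adhesion molecule, was at 861.9 and 932.5 TPM. CDH1, E-cadherin, was at 359.5 and 563.7 TPM. The label of epithelial cells therefore stood with the markers in both libraries. The lowest member by mean TPM was ESRP2, a splicing regulator, at 36.16 and 45.03 TPM. MUC1, a membrane mucin, was the member that was more than 2-fold higher in replicate 2, at 43.6 and 120.9 CPM.

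Surfactant genes were close to 0 in parental H358. SFTPB, which is required for surfactant spreading, had 1 count in replicate 1 and 0 in replicate 2, and SFTPC, the most specific type II marker, had the same. SFTPA2 had 15 and 11 counts and SFTPA1 had 4 and 3, although these genes are near-identical and reads between them may be lost or split. SFTPD had 3 and 10 counts. In all, 5 of 11 alveolar type II markers were expressed, a share below the background of 63.6%.

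The 5 expressed type II markers were NAPSA, ABCA3, LAMP3, SLC34A2 and LPCAT1. LPCAT1, an enzyme of surfactant lipid synthesis that many other tissues also use, was highest at 134.4 and 97.82 TPM. NAPSA, the aspartic protease used to diagnose lung adenocarcinoma, had 6.182 and 8.864 CPM. ABCA3, the lipid transporter of lamellar bodies, had 3.677 and 22.6 CPM. SLC34A2, the phosphate transporter of type II cells, had 2.212 and 26.37 CPM. ABCA3 and SLC34A2 were thus low in replicate 1 and more than 2-fold higher in replicate 2.

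Of 9 alveolar type I markers 7 were expressed, or 77.8% against 63.6% of protein-coding genes. CAV1 and CAV2, the caveolins, had 333.3 and 162.7 CPM and 165.4 and 140.5 CPM. EMP2, a membrane protein, had 159.4 and 145.3 CPM. AGER, the receptor for glycation end products and the best known type I marker in lung, had 7.418 and 3.633 CPM. Of the 7 expressed markers 3, CAV1 and AGER among them, were more than 2-fold lower in replicate 2, against 3.41% of expressed genes. PDPN, podoplanin, had no count, and AQP5, a water channel, stayed below 1 CPM in both libraries. The abundant members are also expressed in many cells outside the lung.

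Airway secretory genes were mostly without counts. SCGB1A1, the defining club cell product, had 0 counts in both libraries, and SCGB3A2 had 1 and 19. MUC5B, a gel-forming airway mucin, was the single club and airway secretory marker of 7 that was expressed, at 79.97 and 37.85 CPM. Among 10 goblet and gastric mucous markers 3 were expressed, namely AGR2, MUC5AC and SPDEF. AGR2, a disulfide isomerase of mucin-making cells, was highest at 251.5 and 332.7 TPM, while the trefoil genes TFF1, TFF2 and TFF3 had no count.

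Of 8 basal and squamous markers 5 were expressed, a share near the 63.6% of protein-coding genes. TP63, the master factor of basal cells, had 91.17 and 54.38 CPM. SOX2, a factor of proximal airway and squamous cells, had 55.57 and 68.4 CPM, and S100A2 had 219.3 and 230.4 CPM. Of the 3 keratins in the list, KRT5 had 0 counts in both libraries, KRT14 had 0.6833 and 0.6176 CPM, and KRT6A was expressed at 3.481 and 1.235 CPM. Reads from isoforms of TP63 cannot be told apart in gene counts.

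Among ciliated markers 4 of 8 were expressed. FOXJ1, the ciliogenesis factor, had 2.245 and 5.631 CPM. The axonemal genes DNAI1, RSPH1, PIFO and SNTN stayed below 1 CPM. DNAH5, an axonemal dynein chain, had 24.73 and 31.31 CPM. FOXJ1 and TPPP3 were more than 2-fold higher in replicate 2.

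Neuroendocrine markers were low, with 2 of 10 expressed and 6 without a count, including NEUROD1, INSM1 and CHGA. DLL3, a Notch ligand of neuroendocrine tumours, had 2.147 and 2.325 CPM, and SYP, a synaptic vesicle protein, had 1.399 and 1.526 CPM. These were the 2 expressed members.

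Mesenchymal markers were expressed for 9 of 15, near the background share, at a list median of 2.78 TPM. FN1, fibronectin, led with 55.31 and 42.86 TPM. SNAI2, which represses E-cadherin, was at 22.31 and 39.07 TPM, and VIM, vimentin, was at 23.67 and 21.61 TPM. The factors ZEB1 and ZEB2 were low, at 2.18 and 1.235 CPM and at 0.1952 and 0.1816 CPM, and TWIST1 had no count. The summed level of the 15 genes was 145.8 and 155.5 TPM, against 7049 and 7757 TPM for the 16 epithelial genes.

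Markers of leukocytes, hepatocytes and intestinal cells were mostly below 1 CPM, and 2 endothelial markers were expressed. Of 9 leukocyte markers 1 was expressed, CD14 at 1.855 and 3.56 CPM, and PTPRC, the pan-leukocyte antigen, had 6 and 5 counts. None of 7 hepatocyte markers and none of 8 intestinal markers were expressed. VIL1, the microvillar protein villin, came closest among the intestinal genes, with 0.2603 and 1.925 CPM. Of 5 endothelial markers analysed, KDR, a VEGF receptor, had 7.581 and 20.13 CPM and VWF had 1.041 and 2.361 CPM, and the other 3 did not reach 1 CPM in both libraries. PECAM1 was not analysed here.

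Erythroid markers gave an exception in embryonic and fetal globins. HBE1, embryonic epsilon globin, had 506 and 697 counts, or 16.46 and 25.32 CPM. HBG2, a fetal gamma globin with a near-identical neighbour, had 1.301 and 1.526 CPM. The adult globins HBA1, HBA2 and HBB had no count, nor had ALAS2, the heme synthesis enzyme of red cell precursors. HBA1 and HBA2 are near-identical, and reads that align to both are not in gene rows, so their zeros are uncertain.

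**Figure D1:**
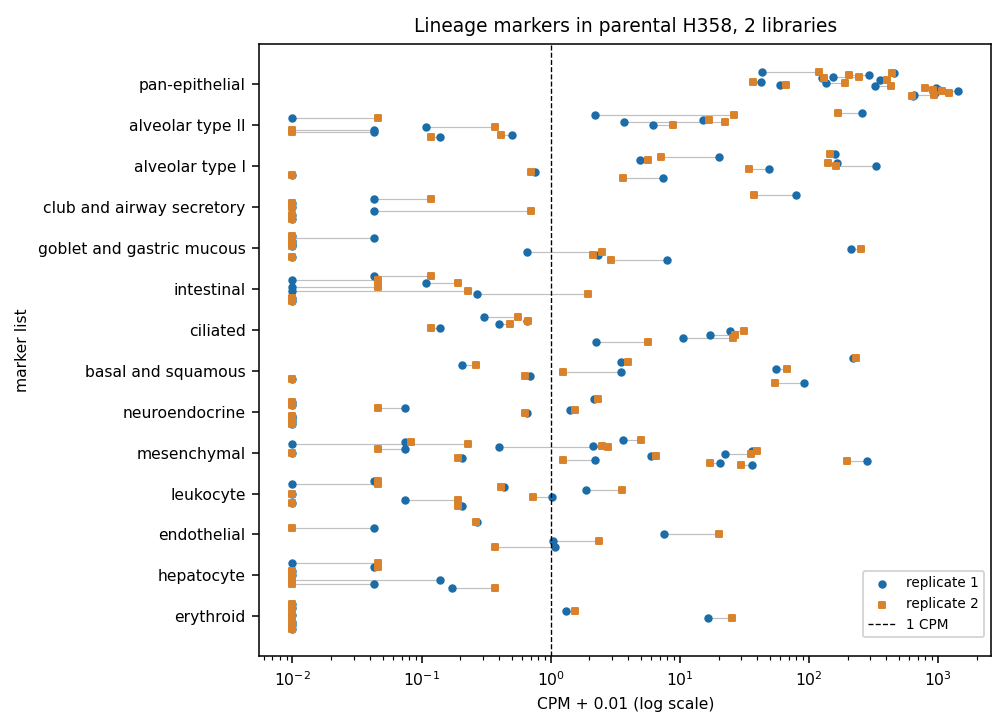
CPM of each marker, plus 0.01 and on a log axis, for 14 lineage lists in the 2 parental libraries, with circles for replicate 1, squares for replicate 2 and a line joining the values of a gene. The 16 epithelial markers lie to the right of the dashed line at 1 CPM, while the 8 intestinal and 7 hepatocyte markers have at least 1 library to the left of it.

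Lineage factors of lung and gut were expressed for 12 of 17, or 70.6% against 63.6% of protein-coding genes, beside this low surfactant level. Of the 17 genes, 4 had at most 3 counts in each library. NKX2-1 had 4848 and 1935 counts, or 157.7 and 70.29 CPM, which was more than 2-fold lower in replicate 2. FOXA2, a pioneer factor of foregut epithelium, had 73.37 and 44.83 CPM, and FOXA1 had 49.72 and 56.56 CPM. SOX9, a factor of the distal lung bud, had 92.6 and 49.44 CPM. KLF5 had 112.4 and 154.5 CPM. CEBPA, a factor of mature type II cells, had 1 and 0 counts, while its relative CEBPB had 45.55 and 84.06 CPM. HNF4A, which marks gut-like mucinous tumours, had no count.

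HOX genes, which mark position along the body axis, were almost silent. Of 39 HOX genes 3 were expressed, namely HOXA3 (1.334 and 1.635 CPM), HOXA5 (1.92 and 1.816 CPM) and HOXD1 (2.831 and 4.032 CPM). HOXA5, a factor of lung development, was thus at the same low level in both libraries. The 16 genes of paralog groups 9 to 13, which pattern the posterior body, summed to 1 count in replicate 1 and 10 in replicate 2. No gene of the HOXB or HOXC clusters was expressed.

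Nuclear receptors were expressed for 19 of 28, or 67.9%, near the 63.6% of protein-coding genes. RARG, a retinoic acid receptor, was highest at 161.2 and 252.1 TPM. RXRA, the common heterodimer partner, was at 43.74 and 57.94 TPM. NR3C1, the glucocorticoid receptor, had 81.63 and 108.2 CPM. The sex steroid receptors ESR1 and PGR stayed below 0.5 CPM in both libraries. PPARG, a regulator of lipid genes, was more than 2-fold higher in replicate 2, at 30.55 and 69.06 CPM.

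All 17 genes of the RAS to ERK chain were expressed, against 63.6% of protein-coding genes, with a median of 44.6 TPM. NRAS was at 85.03 and 106.8 TPM and HRAS at 26 and 23.39 TPM, so NRAS lay above HRAS in both libraries. SOS1 and SOS2, the exchange factors that load RAS with GTP, were at 28.33 and 37.93 TPM and at 31.09 and 40.69 TPM, with overlapping ranges. SHOC2, a scaffold between RAS and its kinases, was at 19.24 and 31.55 TPM. MRAS, a RAS relative, was more than 2-fold higher in replicate 2, at 1.399 and 4.94 CPM.

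Among the kinases below RAS, ARAF was at 61.91 and 48.91 TPM. BRAF was lower in both libraries, at 2.409 and 4.107 TPM, although its annotated exons are long and the value on the scale of the raw counts was 16.72 and 25.72 CPM. MAP2K1, which codes for MEK1, was at 98.57 and 109.6 TPM. MAP2K2, which codes for MEK2, was at 39.6 and 49.51 TPM. MAPK3, an ERK kinase, was at 61.72 and 61.76 TPM. PTPN11, the SHP2 phosphatase that couples receptors to RAS, was at 136.5 and 189.5 TPM.

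The 18 genes induced by this pathway were expressed in both libraries as well. PHLDA1 had 702.5 and 785.6 CPM. EREG, epiregulin, an EGFR ligand, had 290.9 and 235.7 CPM. DUSP6, the ERK phosphatase, had 237.4 and 111.8 CPM, and DUSP5 had 71.16 and 215.8 CPM. These phosphatases moved in opposite directions between the replicates, each by more than 2-fold. EGR1, an immediate early gene, had 40.61 and 8.573 CPM, and AREG, another EGFR ligand, had 7.744 and 2.143 CPM.

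**Figure D2:**
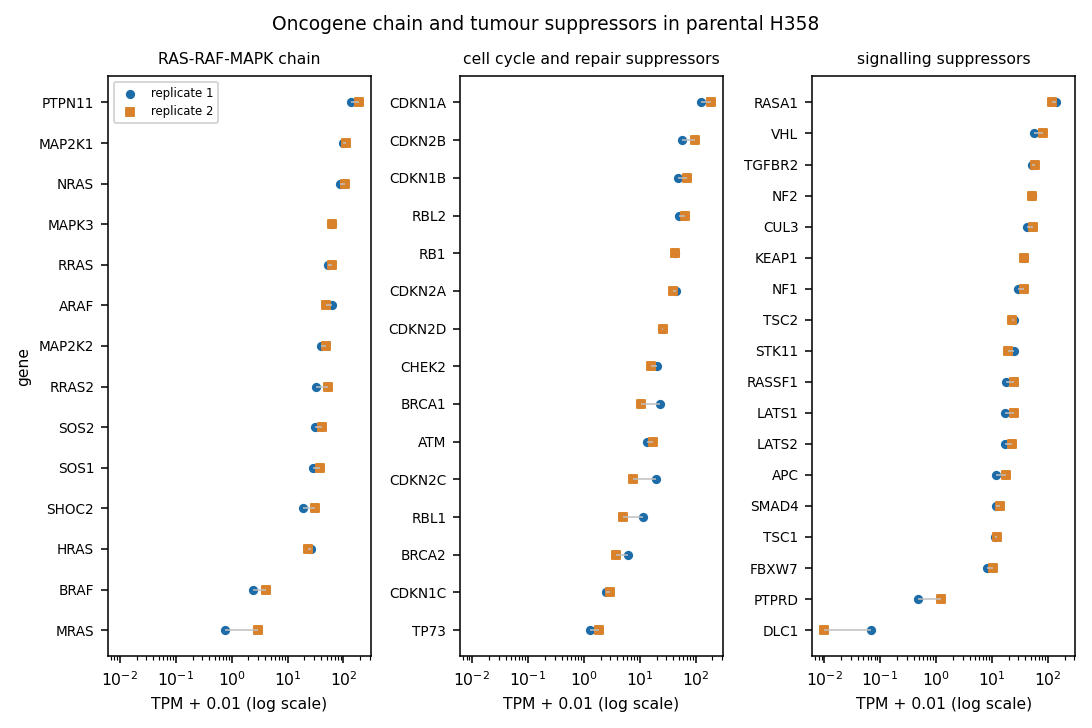
TPM plus 0.01 on a log axis for genes of the RAS chain, cell cycle and DNA repair suppressors and signalling suppressors, each list ordered by mean TPM, with circles for replicate 1 and squares for replicate 2. BRAF lies low in its panel at 2.409 and 4.107 TPM, and DLC1 lies at the left edge of the last panel with 0 in replicate 2.

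Of 58 receptor tyrosine kinases 34 were expressed and 7 had no count, a share of expressed genes close to that of protein-coding genes in general. EPHA2, an ephrin receptor, was the highest at 492.1 and 836.1 TPM, above every other member in both libraries. MET, the receptor of hepatocyte growth factor, followed at 189.5 and 179.8 TPM, and DDR1, a collagen receptor, at 106.2 and 109.7 TPM. The ranges of these 3 did not overlap.

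ERBB3 (63.82 and 103.3 TPM), MST1R (92.31 and 65.17 TPM), EPHB4 (75.48 and 72.96 TPM) and ERBB2 (56.1 and 82.41 TPM) overlapped one another. EGFR was lower, at 28.02 and 33.86 TPM, or 104 and 113.3 CPM. ERBB4 did not reach 1 CPM in replicate 1. Of the ERBB family the kinase-impaired ERBB3 and the ligandless ERBB2 were thus above EGFR in both libraries.

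Several kinases that are targets of therapy when fused or mutated were near 0. ALK had 0 and 1 counts, RET had 1 and 1, and ROS1 had 7 and 5. NTRK3 had no count, whereas NTRK2 had 1483 and 1241 counts, or 7.998 and 8.284 TPM. FGFR1 stayed below 1 CPM, at 0.6507 and 0.9808, while FGFR4 had 14.87 and 15.91 CPM. INSR, the insulin receptor, was at 0.4623 and 0.8064 TPM, against 38.08 and 46.67 TPM for its relative IGF1R.

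**Figure D3:**
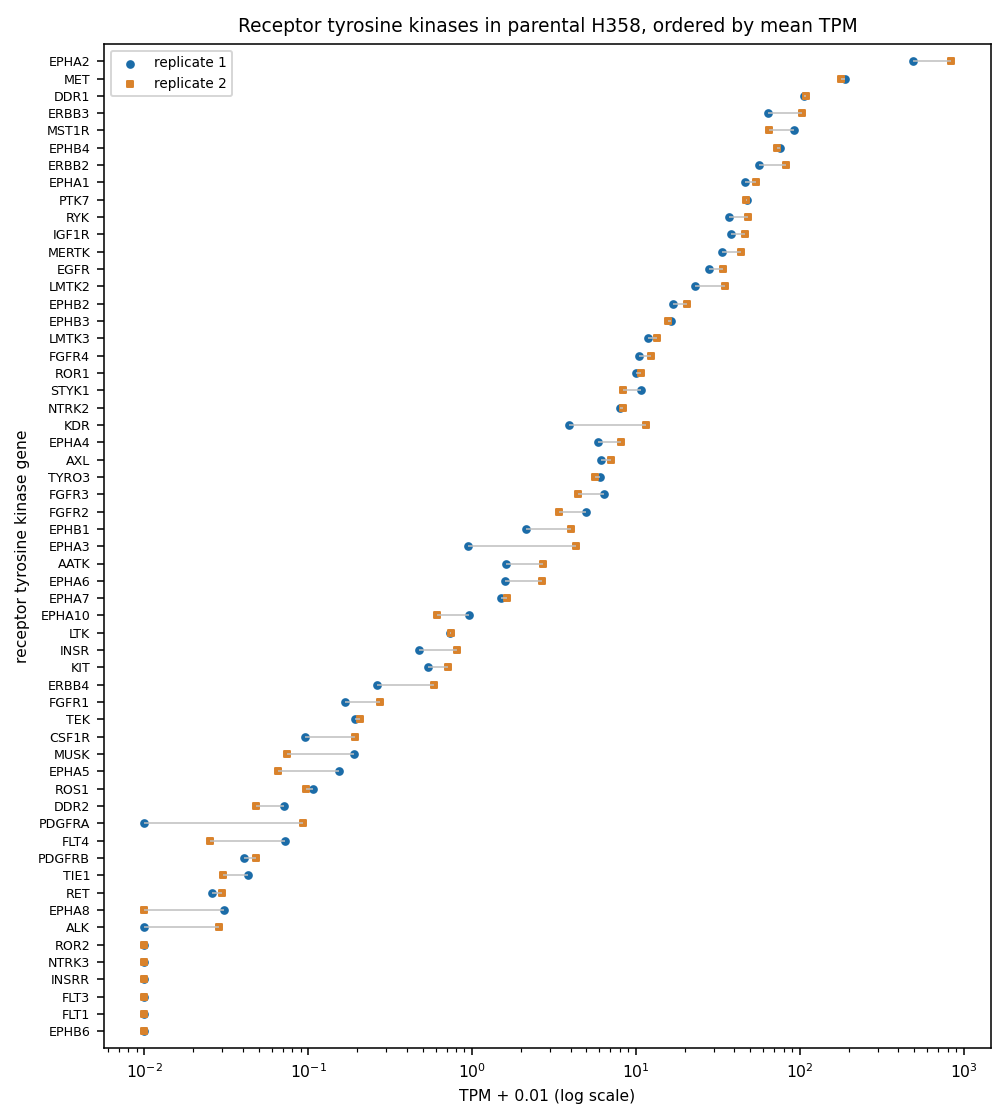
TPM plus 0.01 on a log axis for receptor tyrosine kinases, ordered by mean TPM, with circles for replicate 1 and squares for replicate 2. EPHA2 is at the top with 492.1 and 836.1 TPM, and genes without a count are at the bottom.

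Of 17 MYC family and cell cycle genes 14 were expressed. MYC had 46.79 and 60.88 CPM, MYCL had 4.588 and 6.285 CPM, and MYCN had no count. CCND1, cyclin D1, was at 482.5 and 427.2 TPM, far above CCND3 at 31.42 and 27.01 TPM, and CCND2 had 0 and 1 counts. TERT, the telomerase catalytic subunit, was near the threshold at 1.594 and 0.9808 CPM. CDK2 (104 and 39.63 CPM), E2F1 (72.13 and 21.98 CPM) and CCNE2 (15.91 and 1.126 CPM) were each more than 2-fold lower in replicate 2.

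In the list of other lung cancer oncogenes 18 of 19 were expressed. The exception was BCL2, the survival factor of lymphoid cells, with 1 and 0 counts. Its relatives MCL1 and BCL2L1 were at 495 and 460.6 TPM and at 308.8 and 388.9 TPM. CTNNB1, beta-catenin, had 630.4 and 460.4 CPM. YAP1 and WWTR1, the effectors of the Hippo pathway, had 201.2 and 254.6 CPM and 231.7 and 191.7 CPM.

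The 15 suppressors of the cell cycle and DNA repair described here were expressed. RB1 had 82.06 and 75.16 CPM, which is 42.92 and 43.59 TPM. CDKN2A, whose locus encodes p16 and p14ARF, had 58.34 and 46.35 CPM. CDKN1A, the p21 inhibitor, was highest among them at 126.9 and 186.1 TPM. RBL1 (20.24 and 7.847 CPM), CDKN2C (19.1 and 6.611 CPM) and BRCA1 (62.31 and 25.79 CPM) were more than 2-fold lower in replicate 2.

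Genes that DNA damage can induce were present, 19 of 20 expressed against 63.6% of protein-coding genes, at a median of 23.2 TPM. TNFRSF10B, a death receptor, was high in both libraries at 191.5 and 219.1 TPM. GDF15, a stress cytokine, had 51.34 and 160.4 CPM, more than 2-fold higher in replicate 2. BAX, a pore-forming apoptosis protein, had 39.3 and 22.81 CPM. SPATA18, a mitochondrial quality control gene, was the member not expressed, with 6 and 2 counts.

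The protein-coding genes that neighbour CDKN2A, RB1, STK11 and SMARCA4, genes often lost in lung cancer, were read beside them, and each of the 4 suppressors was expressed. Around CDKN2A 5 of 10 neighbours were expressed and 3 had no count. MTAP, an enzyme often lost together with CDKN2A, had 52.87 and 40.69 CPM. Around STK11 all 10 neighbours were expressed, around SMARCA4 8 and around RB1 7.

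**Figure D4:**
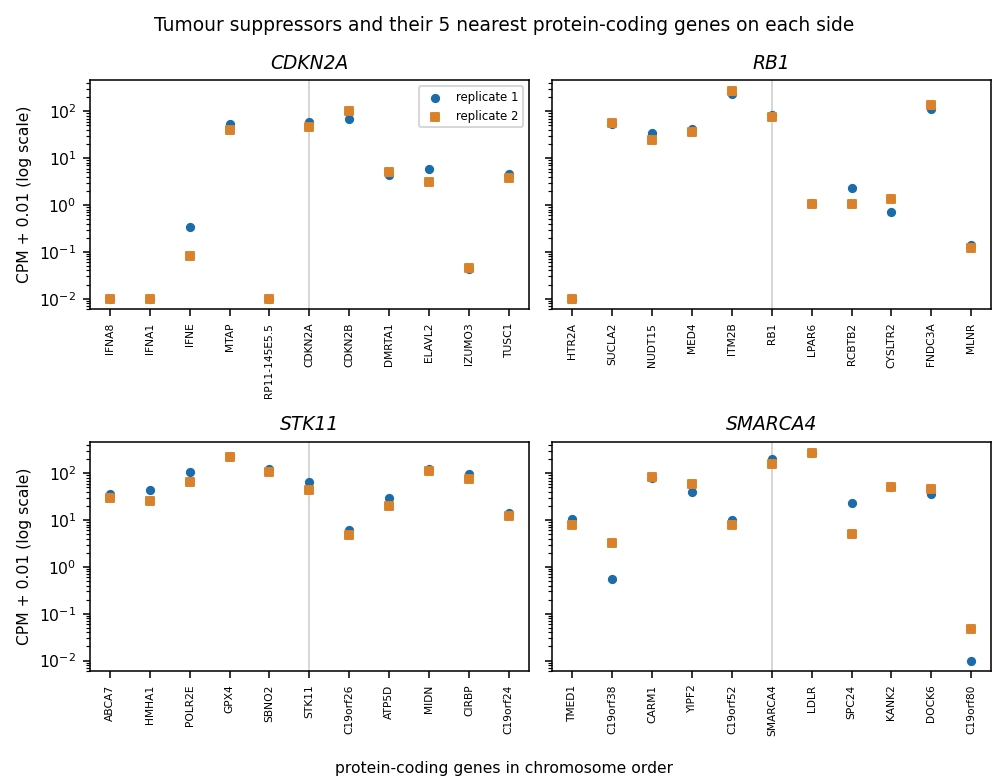
CPM plus 0.01 on a log axis for 4 tumour suppressors and the 5 protein-coding genes on each side of them, in chromosome order, with circles for replicate 1 and squares for replicate 2 and a grey line at the suppressor. The 4 suppressors lie above 40 CPM in both libraries.

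Of 19 signalling suppressors 18 were expressed. STK11, the LKB1 kinase, had 64.29 and 44.28 CPM and KEAP1 had 42.36 and 38.25 CPM. RASA1, a GTPase-activating protein for RAS, was highest at 141.2 and 117.6 TPM, and NF1, another, was at 29.4 and 37.5 TPM. DLC1, a GTPase regulator, was not expressed, with 7 and 0 counts. PTPRD was low at 1.529 and 3.705 CPM. The gene counts carry no information on mutations within these transcripts.

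The 17 chromatin and RNA suppressors were all expressed. SMARCA4, the SWI/SNF ATPase BRG1, had 200.1 and 161 CPM. ARID1A had 170.7 and 176.3 CPM, and KMT2D, a histone methyltransferase, had 172.9 and 339.9 CPM. By TPM the highest were BAP1 at 75.82 and 80.19 and RBM10 at 69.69 and 64.31. No member differed by more than 2-fold between the replicates.

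Among 8 suppressors at fragile sites or in very large genes 5 were expressed, and the list median was 2.48 TPM. FHIT had 2.733 and 5.267 CPM and WWOX had 6.735 and 4.105 CPM. PARK2 had 1 and 0 counts. LRP1B and CSMD3 also stayed below 1 CPM.

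BRMS1, the metastasis suppressor that the series is built on, had 1341 and 1030 counts in its wild-type parental state. This is 43.63 and 37.42 CPM, or 58.58 and 55.69 TPM, with a mean of 57.1 TPM ± 2.04 (SD, n = 2). Splice forms of BRMS1 are not separated in gene counts. In its list of 10 metastasis suppressors 8 were expressed, NME2 counted by its current identifier. ARHGDIB, a GTPase inhibitor, was highest at 315.2 and 233.6 TPM, and PEBP1, a kinase inhibitor protein, was at 158.8 and 140.8 TPM. KISS1 and CD82 were below 1 CPM in both libraries. NME2 overlaps a read-through gene that also holds NME1, and its assignment between annotation releases differs, so its value is uncertain and is not given.

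Surface proteins pursued as drug targets were expressed for 16 of the 17 analysed. CDH3, P-cadherin, was the highest at 365 and 402 TPM. TFRC, the transferrin receptor, was at 221.6 and 295.5 TPM and CD46, a complement regulator, at 158.5 and 254 TPM. Several epithelial antigens were more than 2-fold higher in replicate 2. MUC16, the CA125 mucin, had 47.01 and 189.5 CPM. CEACAM5, carcinoembryonic antigen, had 20.63 and 75.81 CPM, and PVRL4, the current NECTIN4, had 62.53 and 143.7 CPM. MSLN, mesothelin, was the member that missed the threshold, at 0.423 and 2.942 CPM.

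Genes of class I antigen presentation were abundant. HLA-C was at 528.8 and 543.1 TPM and HLA-B at 304.9 and 362.3 TPM, although reads among these similar and polymorphic genes may be lost or split. B2M, the invariant light chain, was at 430.4 and 447.1 TPM. Class II genes were close to the threshold, with HLA-DRA at 0.2928 and 0.5812 CPM and CIITA, their activator, at 1.301 and 1.38 CPM. CD274, which codes for the checkpoint ligand PD-L1, had 33.28 and 32.69 CPM.

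Of 22 cancer-testis antigens analysed, genes normally restricted to the germline, 6 were expressed and 9 had no count. PAGE5 was the highest at 553.8 and 395.4 TPM. MAGEA3 was at 162 and 187.3 TPM, MAGEA6 at 117.4 and 132.4 TPM and MAGEA12 at 111.3 and 124.7 TPM. These MAGEA genes are near-identical copies, and so are the GAGE and SPANX genes, so their split is uncertain. PRAME, CTAG1B and MAGEA4 had at most 2 counts.

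Secreted products were expressed for 20 of 26, or 76.9% against 63.6% of protein-coding genes. PLAU, the urokinase protease, was the highest at 925.4 and 1374 TPM. MDK, the growth factor midkine, was at 269.5 and 266.6 TPM, and VEGFA, the angiogenic factor, was at 184.1 and 257 TPM. CXCL8, listed in the table as IL8, had 3523 and 2687 counts, or 114.6 and 97.61 CPM. LIF, a cytokine of the IL6 family, was at 122.4 and 145.9 TPM, while IL6 itself was at 3.397 and 4.205 TPM. SPP1, osteopontin, was more than 2-fold higher in replicate 2, at 52.87 and 165.9 CPM, and IL1B, with 7 and 118 counts, was below 1 CPM in replicate 1.

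Of 21 xenobiotic and antioxidant enzymes 18 were expressed. GSTP1, a glutathione transferase, was highest at 634.6 and 549.1 TPM, and NQO1, a quinone reductase and target of NFE2L2, was at 476.4 and 448.4 TPM. TXNRD1, thioredoxin reductase, was at 340.4 and 364.5 TPM. Of the 18 expressed, 6 were more than 2-fold higher in replicate 2 and 1 was more than 2-fold lower. AKR1C2, which shares most of its sequence with AKR1C1, had 1.074 and 15 CPM, and CYP1A1, a target of the aryl hydrocarbon receptor AHR, had 4.327 and 33.97 CPM. CYP1B1, another target, had 123.8 and 355.2 CPM, while AHR itself had 97.71 and 108.9 CPM.

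Absent transcripts clustered in gene families, which were grouped by the letters of their symbols and named after their counts were seen. Of 38 DEFB genes, the beta-defensins, 37 had no count. Of 92 KRTAP genes, which build hair, 81 had none. Of 353 genes whose symbols begin with OR, the olfactory receptors, 309 had none and 2 were expressed. These shares stand against 16.3% of protein-coding genes without a count. Of 56 keratin genes 27 had no count and 12 were expressed.

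A further set of zeros belongs to genes that are listed in duplicate. The table lists 49 genes of the pseudoautosomal regions under 2 identifiers each, and all 49 and their 49 partner rows are at 0. Of the partner rows 18 are protein-coding and include CD99, SLC25A6 and VAMP7. Reads that aligned to more than 1 place made up 6.774% and 7.485% of the reads listed and are not in gene rows. Their part in these zeros was not tested.

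The replicates were similar across genes but were not copies of each other. Over the 13933 expressed genes the Pearson correlation of log2 CPM was 0.966, which describes genes within this pair of libraries and not replicates of the condition. The median absolute difference was 0.32 on the log2 scale, and 75.41% of genes lay within 1.5-fold. Replicate 2 was more than 2-fold higher for 584 genes, or 4.19%, and more than 2-fold lower for 475, or 3.41%. With TMM scaling these shares were 3.332% higher and 4.467% lower, so the balance of the directions depended on the scaling. The chi-square of their counts was 62.5 per gene, well above sampling noise.

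Genes of DNA replication and mitosis stood out in that spread. All 15 proliferation markers were expressed, and 11 of the 15 were more than 2-fold lower in replicate 2, against 3.41% of expressed genes. Their summed level was 3022 CPM in replicate 1 and 1233 CPM in replicate 2, with a median ratio of 0.408. RRM2, a ribonucleotide reductase subunit, had 201.5 and 28.88 CPM, and PCNA, the replication clamp, had 219 and 56.2 CPM. MKI67 had 213.4 and 71.78 CPM, and TOP2A, a topoisomerase of dividing cells, had 758.7 and 394.3 CPM. The lower CDK2, E2F1, CCNE2, RBL1, CDKN2C and BRCA1 in replicate 2 moved with these markers, and the part of this shift in the other differences was not tested.

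All 18 housekeeping genes were expressed and none differed by more than 2-fold, with a median ratio of 0.806. GAPDH had 2242 and 1438 CPM and ACTB had 2730 and 1638 CPM, both lower in replicate 2. PGK1 had 714.5 and 712.5 CPM, while EEF1A1, a translation factor, was higher in replicate 2 at 2850 and 4179 CPM.

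**Figure D5:**
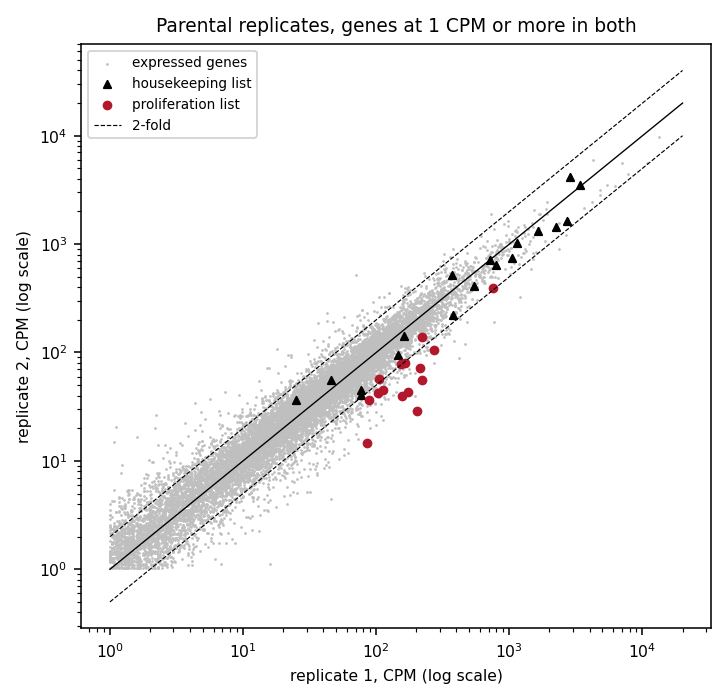
CPM in replicate 2 against CPM in replicate 1, both on log axes, for genes with at least 1 CPM in both parental libraries, with the line of equal levels and dashed lines at 2-fold. The 15 proliferation genes in red lie below the line, 11 of them past the 2-fold line, while the 18 housekeeping genes, black triangles, stay within it.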

How the data were processed

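Total RNA from the 2 parental H358 libraries was described from the deposited table of raw read counts per gene. Per the submitters' processing notes, the tools were cutadapt 1.6, STAR 2.5.0a and HTSeq 0.5.3, on build hg19. The strand setting and annotation release are not given in the sources used here. The authors' table ends in 5 summary rows that name no gene and stayed out of library sizes. Of the reads listed, 10.69% and 9.976% lay outside genes, 2.746% and 2.835% were ambiguous, 6.774% and 7.485% aligned to several places and 1.536% and 1.456% were unaligned. CPM was the count over the sum of 57445 gene rows. TPM used exon-union lengths from GENCODE 29, matched by stable identifier for 90.2% of rows. GENCODE and RefSeq are on GRCh38, so no coordinates of the count table are given. Python 3.11.15, pandas 2.3.3, R 4.3.3 and edgeR 4.0.16 (for TMM scaling) were used. Only the CPM threshold and the 2-fold ratio were tested on simulated counts, which held planted changes and sampling noise alone.

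Groups came from sample titles. A single group allows no test between conditions, and none was run. Genes named were the members of 35 lists (569 genes, 566 found), the 20 highest by CPM and by TPM, the 10 highest long non-coding genes, and 5 neighbours on each side of 6 suppressors. Some of these genes are not reported here. These lists were chosen with earlier results of these data known. Levels were recomputed with other thresholds, scalings, gene lengths and single libraries. The promoter table matched 79.45% of nuclear protein-coding genes, under the share needed to compare promoters between level classes, so that comparison was not made.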

Additional observations from a re-analysis of the deposited data

How the results depend on the processing

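The number of expressed genes was 13933, and it ranged from 11198 at a minimum of 5 CPM to 15197 at 0.5 CPM, with 14480 and 14289 when replicate 1 or replicate 2 was left out. Genes without a count numbered 30327, and 37109 had at most 3 counts. Leaving out mitochondrially encoded genes took the share of the 10 highest genes from 5.79% to 2.86% and of the 100 highest from 17.6% to 13.4%. A minimum of 10 CPM took the share of genes over 2-fold higher in replicate 2 from 4.19% to 2.272%. The count of expressed markers moved past 1.5 times for 2 lists. The intestinal list had 0 expressed genes, and 0 to 1 when a replicate was left out (1, VIL1, without replicate 1). The leukocyte list had 1, and 2 at a minimum of 0.5 CPM, with 1 to 2 when a replicate was left out (2 without replicate 2). TMM scaling left the counts of all 35 lists within 1.5 times. Taking the longest transcript as length multiplied list medians by 0.752 to 1.51. Parental H358 had 2 libraries, so a spread rests on 1 difference, and values of a few counts are set by counting error.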

Other observations

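DHRS2, a short-chain dehydrogenase, was picked after its values were seen. It had 2365 and 907.7 CPM, more than 2-fold lower in replicate 2.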
